A study of Homo sapiens with 42 samples.

Results

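The transcripts of the nuclear lamins and the high mobility group (HMG) chromatin proteins were followed in 1205Lu cells, an established human melanoma line, during treatment with either of a pair of Aurora kinase inhibitors. The set held 10 genes of the 20043 with a named probe on the array: the lamin genes LMNB1, LMNB2 and LMNA, the lamin B receptor gene LBR, and the HMG genes HMGB1, HMGB2, HMGB3, HMGA1, HMGA2 and HMGN2. They were chosen by name, as genes of the nucleus known as senescence markers. AZD1152 (barasertib), which acts mainly on Aurora B, was given at 0.5 µM, and SNS-314, which inhibits several Aurora kinases, at 0.05 µM. Each inhibitor was sampled at 6, 12, 18, 24 and 48 h, with 3 arrays at 6 h and 4 at each later time, and 4 control arrays were taken at 0 h. The 42 arrays therefore formed 11 groups of a single cell line. The controls were all taken at 0 h, so every comparison with 0 h holds the inhibitor and the time in culture together, and these cannot be told apart. The labels do not say whether replicates were separate cultures, so p-values measure the spread between these arrays, which may be technical.

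Lamins are intermediate filament proteins that form a meshwork under the inner nuclear membrane. B-type lamins stay attached to the membrane through a farnesyl group, while A-type lamins are also found inside the nucleus, and LBR holds heterochromatin and B-type lamins to the envelope. HMG proteins bind chromatin without being histones: HMGB proteins bend DNA, HMGA proteins bind the minor groove of AT-rich DNA, and HMGN proteins bind nucleosomes. Loss of lamin B1 is a widely used marker of senescence, HMGB1 can leave the nucleus of senescent cells, and HMGA proteins build up in the condensed chromatin foci of some senescent fibroblasts.

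The promoters of the members that are described most below are shown first, because several of these genes fell together at 48 h. Each run is the 250 bases before a RefSeq transcription start, on the gene's own strand in build GRCh38.p14. Capitals mark matches, on either strand, to the cell cycle homology region (CHR; TTTGAA or TTCGAA), to CCAAT, or to an E2F core (TTTCCCGC, TTTGGCGC, TTTCGCGC, TTTGCCGC or TTCCCGCC). Where a gene has several starts, the window with the most matches is shown. The runs are LMNB1 at its second listed start (chr5:126776886-126777135, plus strand), LMNB2 (chr19:2456960-2457209, minus strand), HMGB3 at its first listed start (chrX:150983085-150983334, plus strand), HMGN2 (chr1:26472190-26472439, plus strand) and, as the lamin that was not called at 48 h, LMNA at its first listed start (chr1:156082323-156082572, plus strand).
LMNB1: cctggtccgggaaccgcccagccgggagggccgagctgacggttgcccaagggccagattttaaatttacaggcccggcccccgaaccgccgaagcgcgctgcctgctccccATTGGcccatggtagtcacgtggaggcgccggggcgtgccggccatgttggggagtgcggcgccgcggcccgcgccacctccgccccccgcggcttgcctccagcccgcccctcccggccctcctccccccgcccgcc
LMNB2: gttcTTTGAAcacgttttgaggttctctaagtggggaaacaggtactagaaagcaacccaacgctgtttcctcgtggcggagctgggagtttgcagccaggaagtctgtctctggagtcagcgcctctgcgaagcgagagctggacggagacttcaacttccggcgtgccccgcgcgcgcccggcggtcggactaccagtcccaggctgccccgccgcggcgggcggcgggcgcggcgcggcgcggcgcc
HMGB3: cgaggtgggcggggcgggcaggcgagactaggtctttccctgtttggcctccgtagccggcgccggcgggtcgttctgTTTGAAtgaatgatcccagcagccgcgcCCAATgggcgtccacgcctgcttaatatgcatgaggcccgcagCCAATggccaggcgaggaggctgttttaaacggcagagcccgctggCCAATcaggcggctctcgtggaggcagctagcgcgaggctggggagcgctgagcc
HMGN2: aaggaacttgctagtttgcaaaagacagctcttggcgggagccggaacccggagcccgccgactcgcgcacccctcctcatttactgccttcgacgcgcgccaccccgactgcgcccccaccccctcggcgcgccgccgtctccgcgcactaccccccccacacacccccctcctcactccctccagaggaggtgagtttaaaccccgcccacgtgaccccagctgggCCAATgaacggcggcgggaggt
LMNA: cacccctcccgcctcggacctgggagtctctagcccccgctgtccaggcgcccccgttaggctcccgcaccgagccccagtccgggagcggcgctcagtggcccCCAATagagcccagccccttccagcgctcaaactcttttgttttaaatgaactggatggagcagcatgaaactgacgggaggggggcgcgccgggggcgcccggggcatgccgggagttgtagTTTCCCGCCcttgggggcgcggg

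The RefSeq promoter table held 15 windows for 8 of the 10 members, HMGB2 and HMGA2 being the others. A CHR was found in 3 of these windows, those of LMNB2, HMGB1 and HMGB3, against 14.3% of all 35116 windows of the same length. The CHR of LMNB2 began 246 bases before the start and that of HMGB3 172 bases before it. A CCAAT match was present in 7 member windows, against 32.0% of all windows, and the first HMGB3 window held 3 of them, which began 144, 101 and 55 bases before the start. The first LMNA window was the only member window with an E2F core, against 4.76% of all windows. There TTTCCCGC and TTCCCGCC overlap, so both mark a single stretch. LBR held no match to any of these letters in its window. These are matches of letters and not measured binding sites.

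Of the 20 probes annotated to the members, 13 were above background, and each of the 13 was so on all 42 arrays. They measured 9 of the 10 genes, among 8917 genes measured in all. The brightest passing probe stood for its gene, and LMNA, LBR, HMGB2 and HMGN2 each had a second, dimmer one. A probe passed when its raw intensity lay above the background of the array, set at 296.3 to 609.7 units, on at least 3 arrays of a group. Levels are log2 of the background-corrected and quantile-normalised intensity, and a level of one gene cannot be set against that of another because probes differ in brightness. A gene was called changed at an adjusted p under 0.05 in limma's moderated test, with Benjamini-Hochberg adjustment over all 8917 genes. RefSeq lists 50 pseudogenes for HMGB1, 48 for HMGN2, 32 for HMGB3, 8 for HMGA1 and 1 for HMGB2. Whether the probes of these genes also bind such copies was not tested.

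The median raw signal of an array was 210 to 338.6 units, and 20.5% to 30.4% of its probes were above background. Of the 10 melanoma and melanocyte markers with a probe, SOX10, S100A1, CSPG4 and MIA were above background on all 42 arrays. S100B and the pigment genes PMEL, MLANA, TYR and TYRP1 were above it on none, and MITF on 1. Of the markers of fibroblasts, leukocytes, keratinocytes and endothelium, 4 were above background on every array, namely PDGFRA, PDGFRB, CD68 and KRT10. PDGFRA and PDGFRB were higher at 48 h, by log2 changes of 0.27 and 0.25 under AZD1152 or 0.39 and 0.36 under SNS-314. The melanoma markers MIA (0.49 and 0.65), S100A1 (0.41 and 0.57) and CSPG4 (0.31 and 0.34) were also called higher. The part of these changes in the members' results was not tested. Replicate 1 of AZD1152 at 18 h and replicate 4 of SNS-314 at 12 h correlated least with their group mates, with a median r of 0.9696 and 0.9752. Results that rest on these arrays are given with and without them where such a fit was made. The column names end in 4 different numbers, taken here as chips. Arrays of different groups deviated together within such a number (median r of deviations 0.179) and not between numbers (-0.0809). The controls shared 2 of the 4 numbers, so values within those chips are given beside the results they move.

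At 48 h, LMNB1, LMNB2, HMGB2, HMGB3 and HMGN2 were called lower with both inhibitors, and LBR with SNS-314 alone. That made 5 of the 9 measured members with AZD1152, where 21.8% of all genes were called lower, and 6 of 9 with SNS-314, where 23% were. No member was called higher with either inhibitor, where 1851 of the 8917 genes were with AZD1152 and 1986 with SNS-314. Whether LBR differed between the inhibitors is tested below. By the brightest probe of each gene, LMNB2, HMGB2 and HMGB3 showed the largest changes, LMNB1 an intermediate one and HMGN2 a smaller one. This order depends on the probe, since the dimmer probe of HMGN2 fell by more and that of HMGB2 by less, as given below. The median log2 change of the 9 members was -0.40 with AZD1152 and -0.42 with SNS-314, against a median of -0.00 and -0.01 over all genes. All 9 members had a value below 0 with both inhibitors, and the called changes were below 0 on each of the chips that held controls, in 22 of 22 within-chip values. These values come from the same arrays as the calls, so they are not separate support. The within-chip values of LMNA, which was not called, ran from -0.30 to 0.05 with AZD1152 and from -0.24 to 0.09 with SNS-314.

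LMNB2, which encodes lamin B2, had the largest change of the set (gene at chr19:2428166-2456959). The 4 controls read 12.89, 12.84, 12.88 and 13.04, the 4 arrays at 48 h of AZD1152 read 11.96, 11.97, 11.91 and 11.95, and those of SNS-314 read 11.81, 11.83, 11.79 and 11.84. Both treated groups lay far below the controls, with no overlap and a spread smaller than that of the controls. On the scale of the normalised intensity, offset included, the fall amounted to 48.8% with AZD1152 (log2 SE 0.08, adjusted p = 1.5e-12) and to 53.1% with SNS-314 (log2 change -1.09 ± 0.08, adjusted p = 3.69e-14). LMNB2 was already lower at 24 h, by a log2 change of -0.30 ± 0.08 with AZD1152 (adjusted p = 0.00927), beside -0.47 ± 0.08 with SNS-314 (adjusted p = 5.36e-05). Within the chips that held controls the 24 h changes of LMNB2 were -0.17 and -0.18 with AZD1152, beside -0.28 and -0.56 with SNS-314. It was at 12.85 ± 0.07 (SD, n = 4) at 18 h with AZD1152 and 12.73 ± 0.07 (SD, n = 4) with SNS-314, and neither of these was called. From 24 to 48 h it fell further in both series, by 37% and 35.2%. In order of level, the SNS-314 and AZD1152 groups at 48 h came lowest, then the 24 h groups at 12.44 ± 0.10 and 12.61 ± 0.15 (SD, n = 4 each). The other 7 group means lay between 12.73 and 12.97 and none of those treated groups was called against 0 h.

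**Figure D1:**
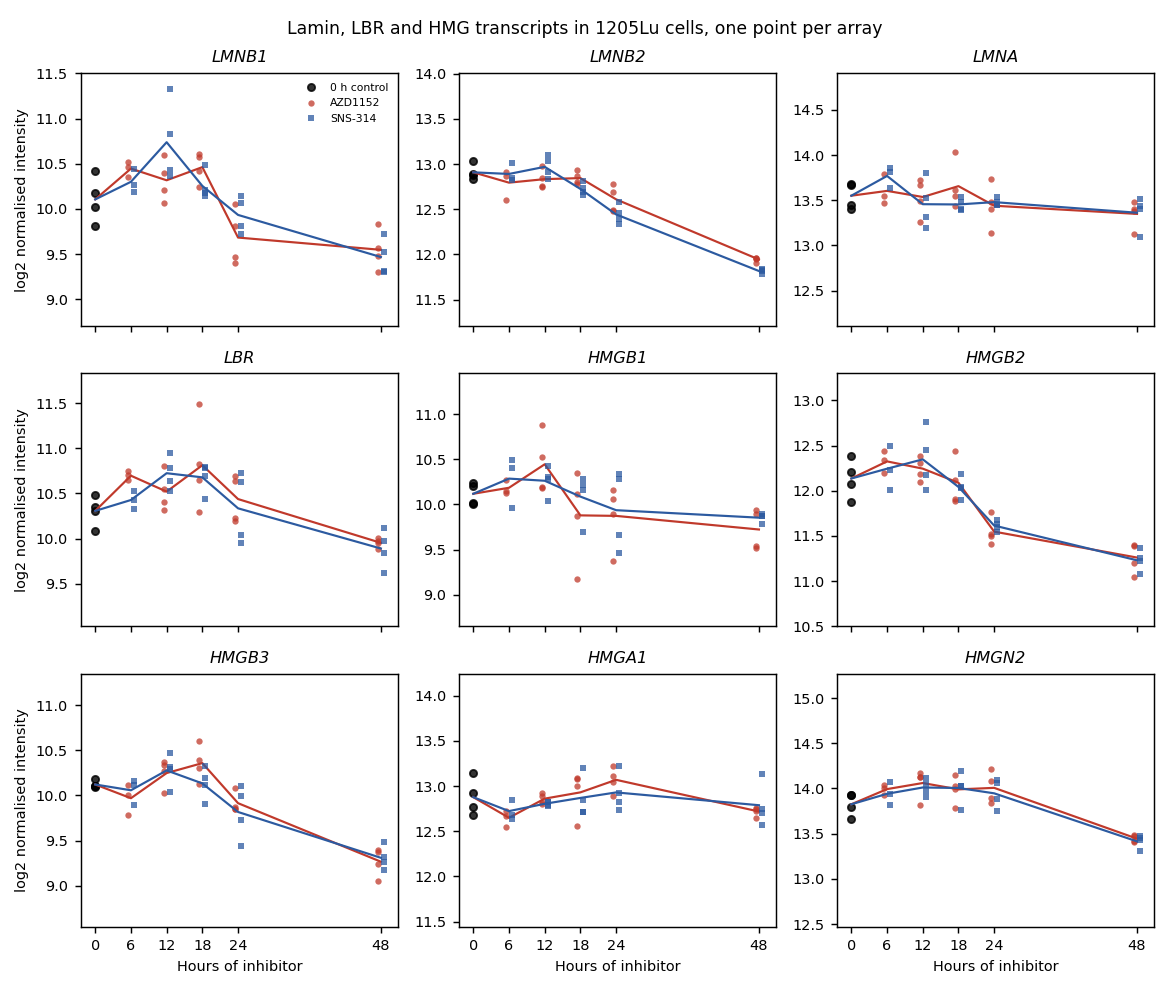
Level of each of the 9 measured members (vertical axis, log2 normalised intensity, the same span in every panel) against hours of inhibitor, with 1 point per array and lines through the group means. The 48 h points of LMNB2 sit near 11.9, clear of the controls near 12.9, while those of LMNA and HMGA1 overlap their controls.

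LMNB1, which encodes lamin B1, lies on chromosome 5 (chr5:126776623-126837020). Its controls read 10.42, 10.18, 9.81 and 10.02, more widely spread than those of LMNB2. At 48 h the arrays read 9.31, 9.48, 9.57 and 9.84 under AZD1152, and 9.72, 9.53, 9.31 and 9.31 under SNS-314. The SNS-314 arrays all lay below the lowest control, whereas the highest AZD1152 array lay just above it. The change was a fall of 32.1% with AZD1152 (log2 change -0.56 ± 0.16, adjusted p = 0.00385) and of 35.7% with SNS-314 (-0.64 ± 0.16, adjusted p = 0.001). Within the chips that held controls it was -0.99 and -0.43 for AZD1152, or -0.57 and -0.39 for SNS-314.

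The highest group mean of LMNB1 was 10.74 ± 0.44 (SD, n = 4), at 12 h of SNS-314. There the gene was called higher than at 0 h, by a log2 change of 0.63 ± 0.16 (adjusted p = 0.00956). The 4 arrays read 10.37, 10.43, 10.83 and 11.33, and the highest of them was replicate 4, which stood apart from its group. Without that array the change was 0.44 ± 0.15 and was not called (adjusted p = 0.121), and within the chips that held controls it was 0.07 and 0.51. The call was also lost without control replicate 3 (adjusted p = 0.0636) and when only the compared groups were fitted (adjusted p = 0.0983). From 12 to 24 h LMNB1 fell with both inhibitors, by 35.6% with AZD1152 (adjusted p = 0.00481) and by 42.8% with SNS-314 (adjusted p = 0.000337), and in both cases the groups did not overlap. Without replicate 4 of SNS-314 at 12 h the second of these was a log2 change of -0.61 and was still called. At 24 h against 0 h the changes were -0.42 ± 0.16 with AZD1152 (adjusted p = 0.0591), beside -0.17 ± 0.16 with SNS-314 (adjusted p = 0.501), and neither was called. The AZD1152 change was called with the chip as a fixed block (-0.45, adjusted p = 0.0318) or a random block (-0.43, adjusted p = 0.0369), and without the arrays that stood apart (-0.42, adjusted p = 0.0285). Within the chips that held controls it was -0.90 and 0.14.

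LMNA, which encodes lamins A and C by splicing, was not called against 0 h at any time with either inhibitor (gene at chr1:156082573-156140081). Its controls read 13.40, 13.45, 13.66 and 13.68, and at 48 h the arrays read 13.48, 13.38, 13.41 and 13.13 under AZD1152, and 13.51, 13.44, 13.10 and 13.40 under SNS-314. These groups overlapped. The log2 change at 48 h was -0.20 with AZD1152 (95% interval -0.46 to 0.05, adjusted p = 0.203), beside -0.19 with SNS-314 (-0.44 to 0.07, adjusted p = 0.226), intervals that reach neither the change of LMNB2 nor a rise of more than 0.07. The dimmer LMNA probe gave -0.18 and -0.01. Fitted among all probes, that dimmer probe was called higher at 18 h with AZD1152, by 0.39 ± 0.14 (adjusted p = 0.0494), where the brighter one gave 0.11 ± 0.13. On the dimmer probe these 18 h arrays were widely spread, from 12.51 to 13.27 (SD 0.37, n = 4). They include replicate 1, which stood apart, and the dimmer probe was not fitted without it. The only call of LMNA from its brighter probe was a fall from 6 to 48 h with SNS-314 (-0.41 ± 0.14, adjusted p = 0.0133), which the dimmer probe did not share (-0.14, adjusted p = 0.467) and which was lost without SNS-314 replicate 2 at 6 h or 3 at 48 h.

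LBR, the membrane protein that binds B-type lamins and heterochromatin and also acts as a sterol reductase, had group means above 0 h up to 24 h and below it at 48 h (gene at chr1:225401502-225428821). It stood at 10.31 ± 0.16 (SD, n = 4) in the controls, at 10.81 ± 0.50 (SD, n = 4) at 18 h and 9.95 ± 0.05 (SD, n = 4) at 48 h with AZD1152, and at 10.68 ± 0.17 (SD, n = 4) and 9.89 ± 0.21 (SD, n = 4) at the same times with SNS-314. The 18 h arrays of AZD1152 read 11.48, 10.82, 10.65 and 10.29, and the call there (0.51 ± 0.16, adjusted p = 0.0274) rested on replicate 1, the array that stood apart. Without it the change was 0.28 ± 0.15 (adjusted p = 0.254), and the dimmer LBR probe gave 0.04. The call was also lost without control replicate 3 (adjusted p = 0.0951) or 4 (adjusted p = 0.0532). Within the chips that held controls the 18 h change was 1.07 and 0.62. The 48 h change was called with SNS-314 (-0.42 ± 0.16, adjusted p = 0.0354) and not with AZD1152 (-0.35 ± 0.16, adjusted p = 0.0783), although the difference between the inhibitors was 0.06 with a 95% interval of -0.27 to 0.39. Fitted among all probes, the dimmer LBR probe was called lower at 48 h with SNS-314 (-0.38 ± 0.12, adjusted p = 0.00794). With AZD1152 it gave -0.08 ± 0.12 (adjusted p = 0.638). Its difference between the inhibitors at 48 h was larger, 0.30 ± 0.12, and was not called. Within the chips that held controls the SNS-314 change was -0.44 and -0.08. The SNS-314 call was lost without replicate 3 or 4 of SNS-314 at 48 h and without control replicate 1, 2 or 4, with changes of -0.33 to -0.42. With the chip as a fixed block the SNS-314 change at 48 h was -0.31 and was not called (adjusted p = 0.0718), while LBR was called higher at 12 h (0.55, adjusted p = 0.0121) and 18 h (0.50, adjusted p = 0.0157) of SNS-314. From 6 to 48 h LBR fell with both, by 40.3% with AZD1152 (adjusted p = 0.000702) and by 31.1% with SNS-314 (adjusted p = 0.0118), the latter not called without replicate 4 of SNS-314 at 48 h (adjusted p = 0.0509). The dimmer LBR probe gave -0.25 from 6 to 48 h with AZD1152 and was not called (adjusted p = 0.119), and -0.56 with SNS-314, which was called.

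Of the HMG genes, only HMGB2 was called against 0 h before 48 h with all arrays and no chip block. It encodes an HMG-box protein that bends DNA and is abundant in dividing cells (gene at chr4:173331376-173334358). The controls read 12.07, 12.21, 11.88 and 12.39, the 24 h arrays 11.41, 11.52, 11.50 and 11.77 under AZD1152, and 11.68, 11.55, 11.60 and 11.63 under SNS-314. Every 24 h array lay below every control. The 24 h change was -0.59 ± 0.13 with AZD1152 (adjusted p = 0.00083), beside -0.52 ± 0.13 with SNS-314 (adjusted p = 0.00272). At 48 h the arrays read 11.20, 11.05, 11.39 and 11.40 under AZD1152, and 11.22, 11.25, 11.37 and 11.08 under SNS-314. The level had fallen by 45.5% (adjusted p = 4.11e-07) and by 46.6% (adjusted p = 2.01e-07). Within the chips that held controls the AZD1152 change at 48 h was -0.94 and -1.08, against -0.87 over all arrays. The dimmer HMGB2 probe was also called lower at 48 h, with changes of -0.57 and -0.57, but not at 24 h (-0.32 ± 0.23 and -0.18 ± 0.23). The 24 h call rests on the brighter probe, and the mean of both probes of HMGB2 gave -0.35 with SNS-314 (adjusted p = 0.0925). At 6, 12 and 18 h the group means of HMGB2 ran from 12.04 to 12.35, on both sides of the control mean of 12.14 ± 0.21 (SD, n = 4).

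HMGB3, an X-linked HMG-box gene (chrX:150980507-150990771), was called lower at 48 h with both inhibitors. Its controls read 10.18, 10.10, 10.11 and 10.10, among the tightest of the set, and its 48 h arrays read 9.37, 9.40, 9.06 and 9.24 under AZD1152, and 9.32, 9.49, 9.26 and 9.17 under SNS-314. Every 48 h array lay below every control. The fall was 44.7% with AZD1152 (log2 change -0.85 ± 0.12, adjusted p = 1.25e-07), beside 43% with SNS-314 (-0.81 ± 0.12, adjusted p = 3.41e-07). Within the chips that held controls the 48 h change of HMGB3 was -0.77 and -0.70 with AZD1152, beside -0.82 and -0.62 with SNS-314. At 24 h the changes were -0.21 ± 0.12 (adjusted p = 0.248) and -0.30 ± 0.12 (adjusted p = 0.0635) and neither was called, although without the arrays that stood apart the SNS-314 change was called (-0.30, adjusted p = 0.0442). Its group means at 6 to 18 h ran from 9.97 to 10.36, around the control mean of 10.12 ± 0.04 (SD, n = 4), and with the chip as a fixed block HMGB3 was called higher at 18 h of AZD1152 (0.35, adjusted p = 0.00737). The arrays there read 10.61, 10.30, 10.13 and 10.39, the highest being replicate 1, which stood apart. The fixed block was not fitted without it. Within the chips that held controls the 18 h change was 0.47 and 0.20. The step from 24 to 48 h was called in both series, at -0.65 ± 0.12 with AZD1152 and -0.51 ± 0.12 with SNS-314.

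HMGN2, which encodes a nucleosome-binding protein that loosens chromatin packing (gene at chr1:26472440-26476642), showed a late and smaller fall on its brighter probe. The controls read 13.66, 13.92, 13.79 and 13.92, and the 48 h arrays read 13.47, 13.49, 13.42 and 13.40 under AZD1152, and 13.45, 13.48, 13.43 and 13.31 under SNS-314. All 48 h arrays lay below all controls. The change was -0.38 ± 0.10 with AZD1152 (adjusted p = 0.00176), beside -0.41 ± 0.10 with SNS-314 (adjusted p = 0.000764). The dimmer HMGN2 probe gave a larger fall, -0.69 ± 0.09 and -0.80 ± 0.09. Between 6 and 24 h the changes of the brighter probe lay between 0.12 and 0.23 above 0 h with either inhibitor. None of these was called, except 12 h of AZD1152 with the chip as a fixed block (0.30, adjusted p = 0.0446). On that probe the fall came between 24 and 48 h (-0.56 ± 0.10 with AZD1152 and -0.53 ± 0.10 with SNS-314, both called). The dimmer probe stood at 9.75 ± 0.06 in the controls. Its 24 h means lay below that, at 9.60 ± 0.08 with AZD1152 and 9.54 ± 0.03 with SNS-314 (SD, n = 4 each), and no test of these differences is given here. The highest AZD1152 array at 24 h (9.71) overlapped the lowest control (9.68), while the SNS-314 arrays (up to 9.57) did not. On the brighter probe the 24 h means lay above the control mean.

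HMGB1, an HMG-box protein that acts as an alarm signal when released from cells (gene at chr13:30456704-30617597), was not called against 0 h at any time with all arrays and no chip block. Its controls read 10.24, 10.20, 10.01 and 10.02, and its 48 h arrays read 9.51, 9.54, 9.93 and 9.90 under AZD1152, and 9.87, 9.78, 9.89 and 9.87 under SNS-314. All 48 h arrays were below all controls, yet the arrays of other times were scattered, with an SD of 0.51 at 18 h of AZD1152. The change at 48 h was -0.40 with AZD1152 (95% interval -0.78 to -0.01, adjusted p = 0.0866), beside -0.26 with SNS-314 (-0.65 to 0.12, adjusted p = 0.255). With the chip as a fixed block HMGB1 was called lower at 48 h with both, by -0.56 (adjusted p = 0.000884) and -0.43 (adjusted p = 0.00897), and with the chip as a random block by -0.51 (adjusted p = 0.00663) and -0.38 (adjusted p = 0.0414). With all arrays and no block, the 1 call of HMGB1 in any comparison was a fall of 32.7% from 12 to 24 h with AZD1152 (adjusted p = 0.0386), which was not called without replicate 2 of AZD1152 at 24 h (-0.41, adjusted p = 0.218), nor without replicate 1 at 24 h or replicate 3 or 4 at 12 h. Under the fixed block it was also called lower at 18 h (-0.44, adjusted p = 0.0183) and 24 h (-0.44, adjusted p = 0.0169) of AZD1152 and at 24 h of SNS-314 (-0.38, adjusted p = 0.0393). The 18 h arrays of AZD1152 read 9.17, 9.87, 10.35 and 10.12, the lowest being replicate 1, which stood apart. Within the chips that held controls the 18 h change was -1.05 and -0.14. The fixed block was not fitted without that replicate. From 6 to 48 h HMGB1 was called lower with the fixed block (-0.52 under AZD1152, adjusted p = 0.00309, beside -0.49 under SNS-314, adjusted p = 0.00473), with the random block (adjusted p = 0.0114 and 0.0158), and without the arrays that stood apart (-0.46, adjusted p = 0.0366, and -0.43, adjusted p = 0.0471).

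HMGA1, an AT-hook protein linked to both growth and senescence (gene at chr6:34236873-34246231), had the smallest 48 h changes of the set by the brightest probes. Its controls read 12.76, 12.92, 13.15 and 12.68, and its 48 h arrays read 12.76, 12.65, 12.72 and 12.75 under AZD1152, and 12.57, 12.70, 12.75 and 13.13 under SNS-314. The groups overlapped. The change at 48 h was -0.16 with AZD1152 (95% interval -0.40 to 0.08) and -0.09 with SNS-314 (-0.33 to 0.15). Its only call was a fall of 21.6% from 24 to 48 h with AZD1152 (adjusted p = 0.0234), from a 24 h level of 13.07 ± 0.13 (SD, n = 4). Without replicate 3 of AZD1152 at 24 h that step was -0.30 and was not called (adjusted p = 0.0824), nor was it without replicate 4 at 24 h or replicate 2 at 48 h.

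HMGA2, the AT-hook protein whose mRNA is held down by let-7 microRNAs, could not be measured (gene at chr12:65824460-65966291). The probe that is brighter on average was above background on 3 of the 42 arrays, 1 at 18 h of AZD1152 and 2 at 12 h of SNS-314, and the other probe on none. Raw intensities of the brighter probe ran from 350.9 to 382 units in the controls, from 246.4 to 343.2 at 48 h of AZD1152 and from 255.5 to 309.4 at 48 h of SNS-314, and none of these values was above the background of its array. No fold change is given for it.

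**Figure D2:**
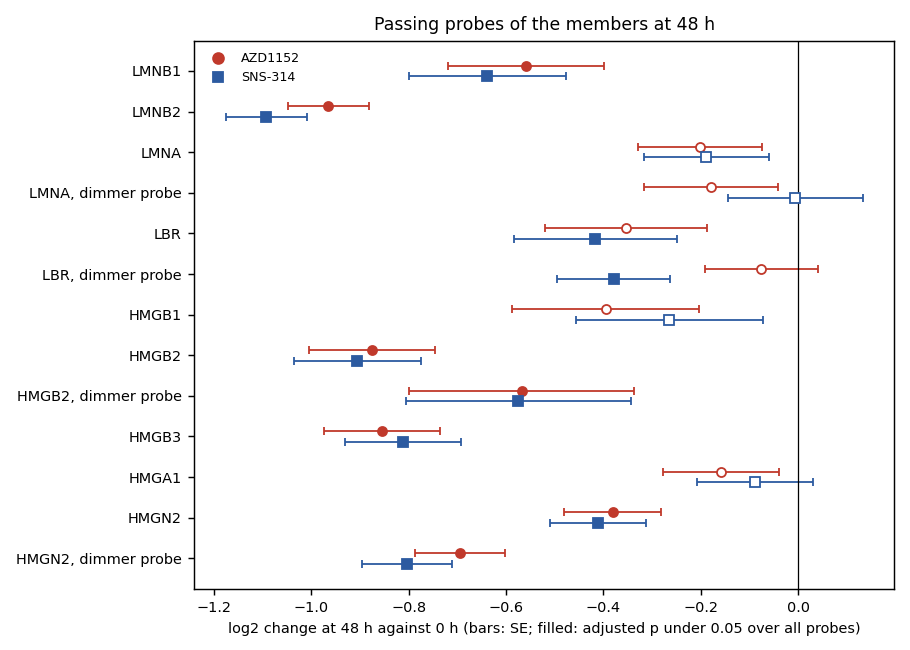
log2 change at 48 h against 0 h (horizontal axis) for each of the 13 passing probes, with AZD1152 as circles and SNS-314 as squares, bars of 1 SE, and filled symbols where the change was called over all probes. Both probes of HMGB2 and of HMGN2 lie left of 0 with both inhibitors, and those of LMNA and HMGA1 are open.

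Before 24 h no member was called lower with all arrays and no chip block. Of all 8917 genes, 133, 252 and 867 were called lower at 6, 12 and 18 h with AZD1152. With SNS-314 these counts were 159, 324 and 503. With only 9 measured members, so few calls do not set the members apart from all genes. At 6 h no member was called in either direction, where 1.2% of all genes were called higher with AZD1152 and 1.93% with SNS-314. At 12 h LMNB1 with SNS-314 was the only one, among 1.95% of genes called higher, and none was called with AZD1152, where 1.45% of genes were. At 18 h LBR with AZD1152 was the only one, where 8.02% of genes were called higher, and none was called with SNS-314, where 4.08% were. Both early calls depended on the arrays that stood apart, as given above. At 24 h LMNB2 and HMGB2 were called lower with both inhibitors, 2 of 9 members in each case, against 9.21% of all genes with AZD1152 and 10.7% with SNS-314.

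Comparisons between times of one inhibitor do not use the 0 h controls. From 12 to 24 h, LMNB1, HMGB1 and HMGB2 were called lower with AZD1152 (3 of 9, against 6.07% of all genes), and LMNB1, LMNB2, HMGB2 and HMGB3 with SNS-314 (4 of 9, against 5.94%). HMGB2 fell by 38.3% over these hours with AZD1152 and by 39.8% with SNS-314, and LMNB2 by 30.6% with SNS-314. The HMGB2 calls rest on its brighter probe, since the dimmer one gave -0.64 with AZD1152 (adjusted p = 0.0713), beside -0.37 with SNS-314 (adjusted p = 0.361). From 24 to 48 h, LMNB2, LBR, HMGB3, HMGA1 and HMGN2 were called lower with AZD1152 (5 of 9, against 13.6%), and LMNB1, LMNB2, LBR, HMGB2, HMGB3 and HMGN2 with SNS-314 (6 of 9, against 13%). The SNS-314 steps of LMNB1 and LBR from 24 to 48 h were each lost without replicate 1 or 2 at 24 h or 3 or 4 at 48 h, that of LBR also without replicate 1 at 48 h, and that of HMGB2 without replicate 1 at 24 h or 4 at 48 h. The AZD1152 step of LBR was lost without replicate 1 or 2 at 24 h or 3 at 48 h. It was also lost on the mean of both LBR probes (-0.26, adjusted p = 0.0733) and was -0.04 on the dimmer one (adjusted p = 0.867). The 12 to 24 h step of HMGB3 was lost without SNS-314 replicate 4 at 24 h. From 6 to 48 h, 6 of 9 members were called lower with AZD1152, where 20.9% of all genes were, and 7 of 9 with SNS-314, where 23.2% were. The seventh with SNS-314 was LMNA. HMGB2 had the largest 6 to 48 h fall with AZD1152 (52.2%), and LMNB2 with SNS-314 (52.5%).

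AZD1152 and SNS-314, at doses that differ by design, were set side by side at each time. None of the 45 member-time differences between them was called. No gene at all was called at 6, 12, 24 or 48 h (0% of the 8917), and 3 genes were called at 18 h (0.0336%), none of them a member. At an unadjusted p under 0.05, 280, 577, 1054, 297 and 270 genes differed at 6, 12, 18, 24 and 48 h. The differences ranged from -0.42 to 0.27 on the log2 scale, and 1 of the 45 intervals excluded 0. That was LMNB1 at 12 h, lower with AZD1152 by a log2 difference of -0.42 (95% interval -0.74 to -0.10, adjusted p = 0.747), which was -0.22 without replicate 4 of SNS-314. At 48 h the intervals of all 9 members lay between -0.51 and 0.40, so differences of that size between the inhibitors cannot be told from none. The 48 h arrays of LMNB2 did not overlap between the inhibitors, but the difference of 0.13 had an interval of -0.04 to 0.30 with the spread shared over all groups.

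**Figure D3:**
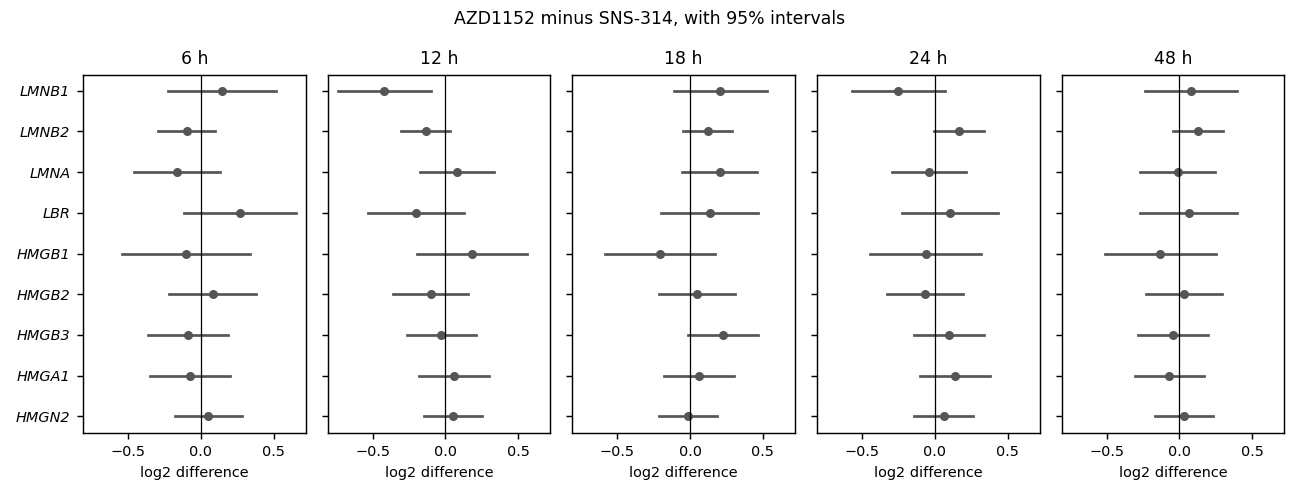
Difference between the inhibitors (AZD1152 minus SNS-314, log2, horizontal axis) for each of the 9 members at each time, with 95% intervals. LMNB1 at 12 h is the 1 interval of 45 that excludes 0.

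All 20 of the proliferation reference genes, a list of replication and mitosis genes, were called lower at 48 h with both inhibitors, with a median change of -1.15 with AZD1152 and -1.22 with SNS-314. Among the largest were RRM2, which makes deoxynucleotides (-1.99 and -1.69), and the replicative helicase subunits MCM5 (-1.72 and -1.63) and MCM2 (-1.55 and -1.64). At 18 h, 10 and 9 of these 20 genes were already called lower, with medians of -0.37 and -0.32. Of all 8917 genes, 867 and 503 were called lower then, and no lamin or HMG gene was without a chip block. With only 9 measured members, this absence does not set the members apart from all genes. The part of the fall of the proliferation genes in the members' changes was not tested. In these bulk samples fewer cells of a kind and less RNA per cell cannot be told apart.

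**Figure D4:**
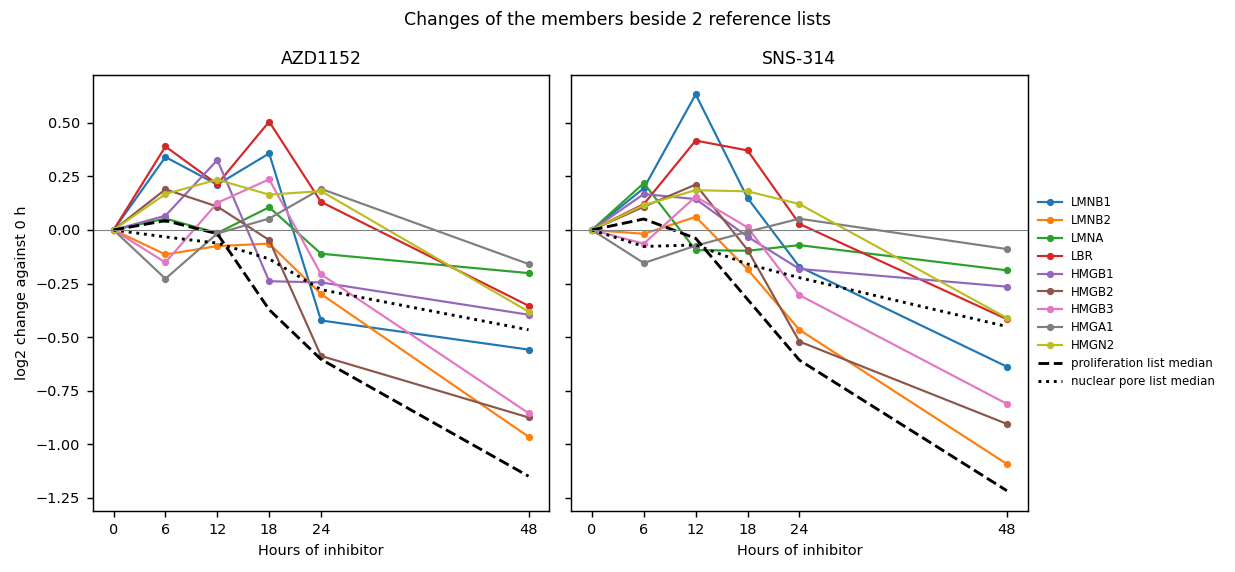
log2 change against 0 h (vertical axis) of the 9 members at each time (horizontal axis, hours) with AZD1152 and SNS-314, beside the medians of the proliferation (dashed) and nuclear pore (dotted) lists. At 18 h the proliferation median is at -0.37 and -0.32 while LBR and HMGN2 lie above 0, and by 48 h all members lie below 0.

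Of 17 measured lamina and inner nuclear membrane partners, 9 were called lower and 1 higher at 48 h with AZD1152, and 8 lower and 1 higher with SNS-314, with medians of -0.23 and -0.21. TMPO, which encodes the lamin-binding LAP2 proteins, fell by 1.28 and 1.27 on the log2 scale. TMEM201 (-0.99 and -1.01) and NRM, which encodes nurim (-0.66 and -0.62), followed, both membrane proteins of the nuclear envelope. LEMD2, an inner membrane protein with a LEM domain, rose by 0.37 and 0.30. Of 5 lamin processing enzymes, 2 were called lower with both inhibitors, namely ICMT, which methylates the farnesylated end (-0.50 and -0.60), and RCE1, which trims it (-0.48 and -0.42).

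Of 24 measured nuclear pore genes, 19 were called lower with AZD1152 and 18 with SNS-314 at 48 h, with medians of -0.47 and -0.45. The scaffold nucleoporin NUP85 (-1.05 and -1.21), the membrane nucleoporin NDC1 (-0.90 and -1.01) and NUP155 (-0.98 and -0.91) had the largest falls by the mean of both inhibitors. SEC13, which also serves in vesicle coats, was the 1 called higher (0.55 and 0.45).

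The genes of the list of other HMG and HMG-box proteins did not share one direction. Of 19 measured, 3 were called higher and 3 lower at 48 h with AZD1152, and 7 higher and 4 lower with SNS-314, with medians of 0.12 and 0.03. TFAM, which packages mitochondrial DNA, fell by 0.97 and 1.03 on the log2 scale. SUPT16H (-0.71 and -0.74) and SSRP1 (-0.45 and -0.58), the subunits of the histone chaperone FACT, fell together. SUPT16H was listed as the partner of SSRP1 and has no HMG box itself. HBP1, an HMG-box repressor of cell cycle genes, rose by 0.66 and 0.76, and HMGXB3 by 0.35 and 0.27. Of 16 measured heterochromatin proteins, 6 were called lower with AZD1152, and 7 lower and 1 higher with SNS-314. ASF1B, a replication-linked histone chaperone (-1.30 and -1.37), SUV39H1, which methylates histone H3 (-1.25 and -1.35), and the HP1 protein gene CBX1 (-0.71 and -0.56) had the largest falls by the same mean.

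For extracellular HMGB1, 4 of 12 listed receptors and partners were measured. IL6, a cytokine that HMGB1 can induce, was called lower at 48 h (-0.87 and -1.23), and HAVCR2, a receptor that binds HMGB1, was called higher (0.28 and 0.31) although it was above background on only 9 arrays. In the let-7 and IGF2BP axis of HMGA2, none of 5 measured genes was called at 48 h with either inhibitor, with medians of 0.05 and -0.01. Counts called lower in every list are to be read against the 21.8% and 23% of all genes called lower. Counts called higher are to be read against 1851 of 8917 genes with AZD1152 and 1986 with SNS-314.

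Across the 11 group means, Pearson's r among LMNB1, LMNB2, HMGB2, HMGB3 and HMGN2 ran from 0.753, between LMNB1 and HMGN2, to 0.954, between LMNB2 and HMGB3. LMNA, which was not called at 48 h, had an r of 0.708 with HMGB2. HMGA1 stood apart, with r from -0.246 to 0.347 against the other 8. These values describe 11 groups that share control arrays, chips and the time axis. The measured genes with the most similar pattern were IMPDH1 (r = 0.984), ADRA1B and PRR11 for LMNB1, PARP1 (r = 0.993), CACYBP and CBFB for LMNB2, and FAM110A (r = 0.992), HJURP and RNF182 for HMGB2. For HMGB3 they were TUBB4B (r = 0.985), NRM and CCNB2, for HMGN2 EPHA4 (r = 0.982), POLR2J and NUDT1, and for LBR RAC1 (r = 0.979), TUBB6 and ANAPC7. HMGB1 was most like KIF18A (r = 0.969), SYNE2 and PHACTR4, LMNA like LRFN4 (r = 0.931), ZNF232 and TRERF1, and HMGA1 like TENM3-AS1 (r = 0.917), DACT1 and MSRB1.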

How the data were processed

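Total RNA of 42 samples was hybridised to Illumina bead arrays, 1 array each. The deposited probe intensities come without detection p-values, per the file headers, and the authors also deposited log2 values whose normalisation is not given in the sources used here (median 8.15 in every column). The intensity table carries 2 header lines that name samples differently. The second was used, since 42 of 42 columns then matched their own deposited log2 column best by rank correlation, against 1 of 42 for the first.

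Intensities were corrected by normexp (offset 50), quantile-normalised and put on a log2 scale in limma 3.58.1 (R 4.3.3). The offset makes changes of dim genes look smaller. No detection call being given, background on each array was the mode of log2 intensity plus the normal 95th percentile of the spread below that mode, and a probe passed when above it on at least 3 arrays of a group, leaving 13481 of 47312 probes and 8917 genes. Probe names came from the platform annotation, updated through RefSeq identifiers: 30110 probes had 1 symbol, 8 several and 17194 none. All 42 arrays entered one model of 11 group means with eBayes, and the fit was tested on simulated data. The depth of an array has no counting error, so the number of arrays limits the precision (median SE 0.113 at 48 h against 0 h). Same-numbered AZD1152 and SNS-314 arrays deviated together at 6, 12 and 24 h (every r at least 0.15). At 48 h they did so more weakly in some pairs (r from 0.0671 to 0.288), and at 18 h not in every pair (r from -0.0491 to 0.401). Each same-numbered pair of inhibitor arrays also shared its chip number, so replicate and chip cannot be told apart in these pairs. Treated arrays did not pair steadily with controls, of which only replicate 1 shared a chip number with the same-numbered treated arrays. The replicate number as a block, chip blocks, other scalings, filters and probe rules, and leaving out each array were tried.

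All 10 members are named, up to 3 called genes per list and direction by their 48 h change, and the 3 genes most like each member. The members and lists were chosen with earlier results of these data known. Promoter letters are from RefSeq (GRCh38.p14).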

Additional observations from a re-analysis of the deposited data

Results flagged for a closer look

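In 4 of the 81 member groups with 4 arrays, 1 array lay far from the other 3, where chance alone gives about 1 group in 20. HMGB3 read 10.18 in replicate 1 of the controls, against 10.10 to 10.11 in the others, a gap that is large only because those 3 agree so closely. HMGB3 also read 10.09 in replicate 1 of AZD1152 at 24 h, against 9.85 to 9.87. HMGA1 read 12.55 in replicate 1 of AZD1152 at 18 h, against up to 13.09 in the others, on the array that correlated least with its group. HMGN2 read 13.82 in replicate 3 of AZD1152 at 12 h, against 14.13 to 14.17.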

How the results depend on the processing

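Of 48 called member changes, 31 kept their call and direction under every alternative and none reversed. The 48 h calls of LMNB1, LMNB2, HMGB2, HMGB3 and HMGN2 against 0 h were among those kept, with both inhibitors. The calls from 6 to 24 h against 0 h were 3 for each inhibitor and rose to 8 for AZD1152 and 6 for SNS-314 with the chip as a fixed block, and to 5 and 5 with the chip as a random block. The fixed block added HMGN2 at 12 h, HMGB1 and HMGB3 at 18 h and HMGB1 and LMNB1 at 24 h with AZD1152, and LBR at 12 and 18 h and HMGB1 at 24 h with SNS-314. From 12 to 24 h with AZD1152 the count of 3 became 5 with the replicate block, and 5 with either chip block, by adding LMNB2 and HMGB3. From 24 to 48 h the counts of 5 (AZD1152) and 6 (SNS-314) fell to 3 and 3 with no filter on dim probes, where LMNB2, HMGB3 and HMGN2 remained. Without replicate 1 of SNS-314 at 24 h or replicate 4 of SNS-314 at 48 h the SNS-314 count was also 3. Leaving out each array in turn gave 5 to 5 calls at 48 h with AZD1152 and 5 to 6 with SNS-314, 2 to 4 from 6 to 24 h with each, 6 to 7 for 48 h against 6 h with each, 2 to 3 and 3 to 5 from 12 to 24 h, 4 to 5 and 3 to 6 from 24 to 48 h, and 0 to 0 between inhibitors. The replicate block changed no call between the inhibitors, which stayed at 0. Without the arrays that stand apart, an alternative chosen after seeing the data, LMNB1 at 24 h (-0.42, adjusted p = 0.0285) and LBR at 48 h (-0.35, adjusted p = 0.0365) were also called lower with AZD1152. So were HMGB3 at 24 h of SNS-314, HMGB1 from 6 to 48 h with both inhibitors, and, with AZD1152, HMGB3 from 12 to 24 h and HMGB2 from 24 to 48 h. The causes of these moves were not tested. Signal over background limits HMGA2.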
